A study of Mus musculus with 4 samples.

Results

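The cells described here are those to which the authors gave the name pDC, the usual short form for plasmacytoid dendritic cell, in their deposited list of cell types. A barcode was taken when its name equalled pDC and the count table held a column for it, which gave 246 cells of 16383, 169 with barcode suffix 1 and 77 with suffix 2. The cells came from 4T1 mammary tumours grown in BALB/c mice, either from wild-type 4T1 cells or from Mif-depleted ones, where Mif encodes a secreted cytokine. 4T1 is a transplantable mouse breast cancer line, and in the Mif-depleted group the tumour cells are the ones that the labels call depleted. Each sample pooled 3 dissociated tumours, 2 samples represented each of the 2 groups, and live CD45-positive cells were sorted before droplet library preparation. The sources used here give no animal ages. No label or header ties a barcode suffix to a sample, so wild-type and Mif-depleted tumours could not be compared in these cells, and each suffix was described apart.

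Plasmacytoid dendritic cells are blood-borne sentinels that sense viral nucleic acids and can release large amounts of type I interferon; in the mouse they are recognised by Siglech, Bst2, Tcf4 and Irf8. Osteoclasts are bone-resorbing cells that form by fusion of myeloid precursors under RANK signalling, pump protons with a V-ATPase and digest matrix with cathepsin K and Mmp9. Nrp2, a co-receptor for semaphorins and vascular endothelial growth factors, and Atp6v0d2, the d2 subunit of the V-ATPase, were taken as markers of the cells named pDC. They were picked from earlier results of these data, so their levels are a description, and Atp6v0d2 is best known from osteoclasts.

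Only 5 of 35 listed markers of plasmacytoid dendritic cells lay among the 4099 genes analysed, which come from chromosomes 1 to 5. Siglech, the gene that the authors' list sets beside the name, and Bst2, Tcf4 and Irf8 were not analysed here, so the name could not be checked against its defining genes. Names were deposited with no account of how they were given, and may rest on the same counts. Differences from other cells are therefore descriptions of the named group, with no test.

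Cells named pDC were deeply counted. A cell named pDC held a median of 5101 counted UMIs (unique molecular identifiers) in suffix 1 and 4179 in suffix 2, against 1202 and 1681 in all other cells. These medians ranked 2 and 3 of 23 names. Cells named Macro_Mgl2 had medians of 6227 and 5630, and cells named cDC1_Clec9a 4857 and 6220. Levels below are UMIs of a gene per 10000 counted UMIs summed over the cells of a suffix. A gene was called higher or lower where the exact 95% interval of its ratio lay beyond 2-fold and both sides together held 50 or more UMIs. Intervals cover counting error only.

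The name was carried by 169 of 13162 annotated cells of suffix 1, a share of 1.28% (exact Clopper-Pearson 95% interval 1.10 to 1.49). Suffix 2 had 304 of 11961, or 2.54% (2.27 to 2.84), and the highest of the 4 shares. In suffix 3 the count was 132 of 9317, a share of 1.42% (1.19 to 1.68), and in suffix 4 it was 191 of 11341, or 1.68% (1.46 to 1.94). Only 26.9% of the annotated cells of suffix 2, and none of those of suffixes 3 and 4, had counts. Within suffix 2 the share was 2.39% (1.89 to 2.98) among cells with counts and 2.60% (2.27 to 2.95) among those without. None of the 35 barcode sequences that suffixes 1 and 2 had in common belonged to a cell named pDC.

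Against all other cells of suffix 1, 210 of 3514 genes were higher in the cells named pDC (5.98%) and 105 were lower (2.99%). Bdh2, Atp6v0d2 and Nrp2 were among the 4 genes with the highest log2 ratios, and Ccn1 and Col5a2 had the lowest. Against all other cells of suffix 2, 55 of 3087 genes were higher (1.78%) and 117 lower (3.79%). Of the 210 higher genes, 203 could be compared in suffix 2, where 197 had the same sign and 38 the same call. Those 38 were 18.1% of the higher genes of suffix 1 and 69.1% of those of suffix 2. Of the 105 lower genes, 57 were lower in suffix 2 as well. The median log2 ratio over all genes compared was 0.29 in suffix 1 and 0.08 in suffix 2. The split depended on the scale: leaving S100a8 and S100a9, the dominant neutrophil transcripts, out of the denominator moved that median by -0.29 and gave 101 higher and 159 lower genes. Counting UMIs per cell moved it by 1.37 and gave 2021 higher and 19 lower genes, since cells named pDC held more UMIs.

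By summed level Atp6v0d2 set these cells apart from nearly every other name, and Nrp2 did so less sharply. Nrp2 (GRCm38 chr1:62703285-62818695, plus strand) reached a level of 18.5 in suffix 1, against 1.70 in other cells, and 19.3 in suffix 2, against 4.89. The log2 ratios were 3.44 (3.37 to 3.52) and 1.98. Atp6v0d2 (chr4:19876841-19922605, minus strand) stood at 13.9 against 1.23 in suffix 1 and at 13.1 against 4.82 in suffix 2. Its log2 ratios were 3.50 and 1.44. Cells named pDC ranked second of 23 names for both genes in both suffixes, after cells named cDC1_Clec9a. Those had Nrp2 levels of 22.7 and 26.8 and Atp6v0d2 levels of 38.5 and 39.6. The third name in order for Atp6v0d2 in suffix 1 was Macro_Vegfa, at 0.34. Without thinning, an Nrp2 UMI was found in 63.9% and 75.3% of cells named pDC. The shares were 48.9% and 51.3% for cDC1_Ccl22, 41.0% and 55.9% for Macro_Maf and 41.1% and 53.4% for Macro_Vegfa.

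**Figure D1:**
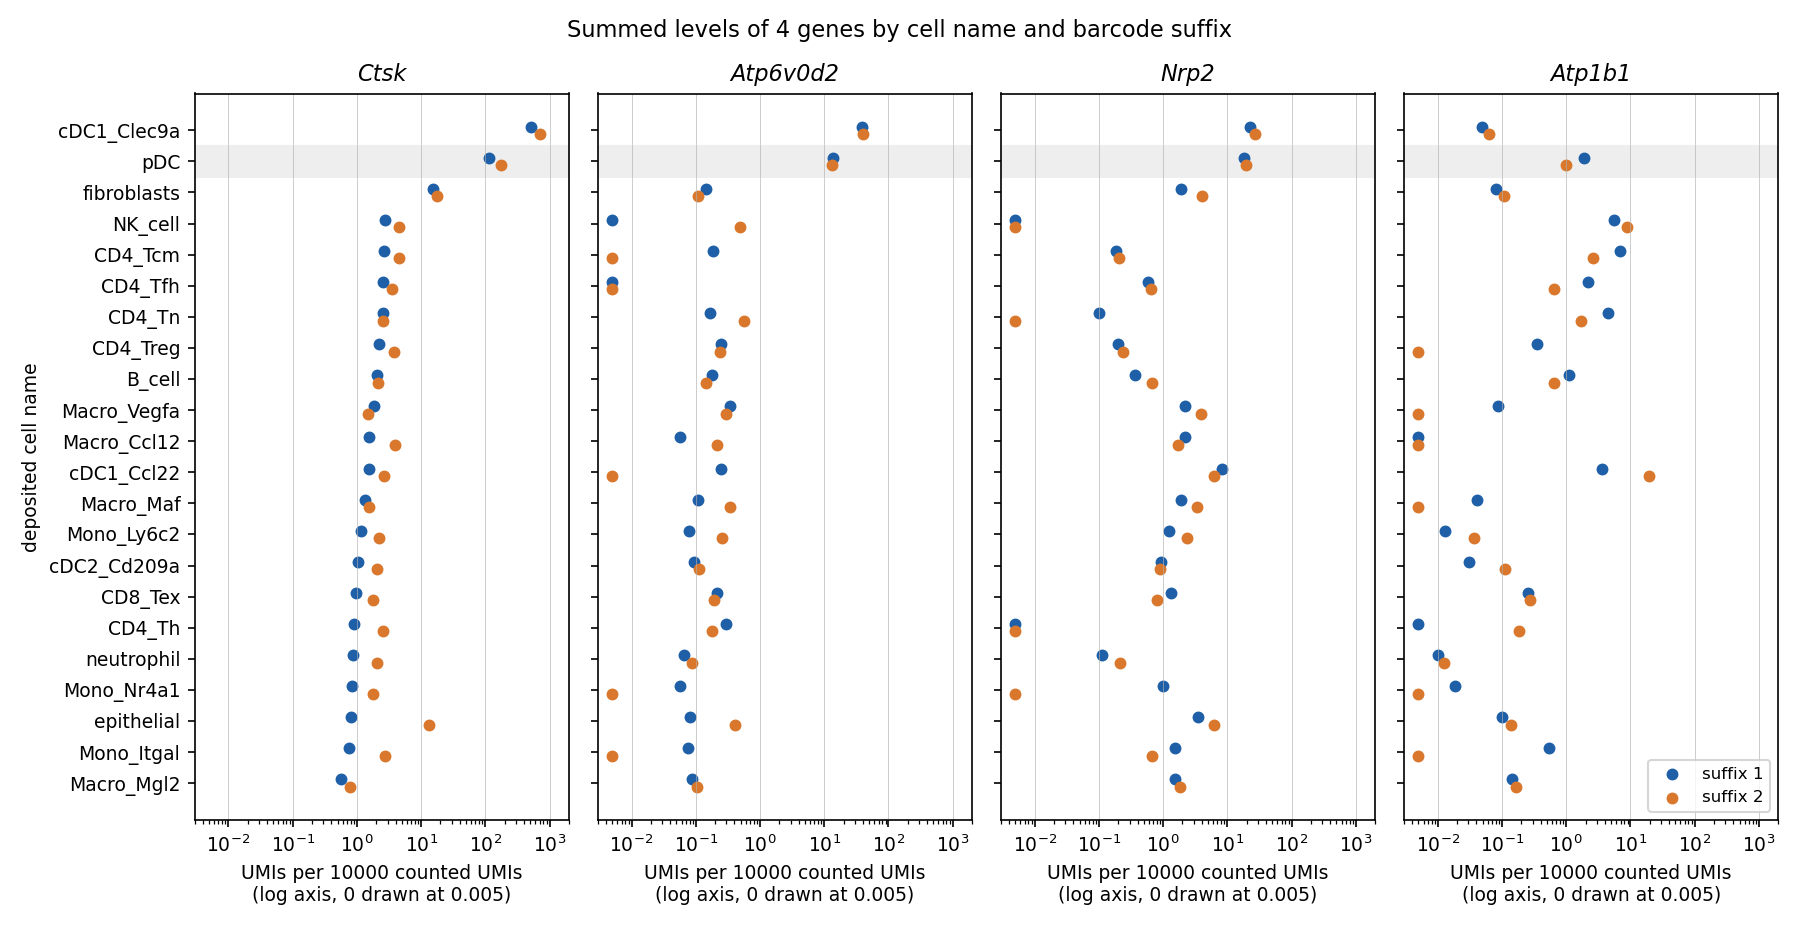
Levels (UMIs per 10000 counted UMIs, log axis) of Ctsk, Atp6v0d2, Nrp2 and Atp1b1, summed over the cells of each deposited name, for suffix 1 (blue) and suffix 2 (orange); 1 name is not shown. For Ctsk, Atp6v0d2 and Nrp2 the cells named pDC (shaded) sit second, below cDC1_Clec9a. For Atp1b1 several lymphocyte names and the dendritic name cDC1_Ccl22 sit above them.

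The osteoclast list was higher nearly as a whole in suffix 1. Of 23 listed markers 10 were measured, and 9 of the 10 were higher, with a median log2 ratio of 2.27 against 0.29 over all genes. Their summed level was 245 in cells named pDC and 41.6 in other cells. In suffix 2 the sums were 310 and 161, and 3 of 10 were higher. Over all genes 5.98% were higher in suffix 1 and 1.78% in suffix 2. With cDC1_Clec9a cells left out of the comparison, an alternative chosen after the data were seen, 9 of 10 were higher in each suffix. Over all genes 239 of 3495 were then higher in suffix 1 and 108 of 3032 in suffix 2. The osteoclast count in suffix 1 was also 9 with S100a8 and S100a9 out of the denominator, where 101 of 3514 genes were higher.

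Of the osteoclast list, 2 genes encode proteases that degrade matrix. Ctsk, which encodes the collagen-degrading cathepsin K (chr3:95499256-95509362, plus strand), stood at 116 against 16.1 in suffix 1, a log2 ratio of 2.85 (2.82 to 2.88). Its level in suffix 2 was 173 against 85.6, a log2 ratio of 1.01. Mmp9, a gelatinase, had levels of 83.2 against 17.5 and of 89.5 against 53.8. Cells named pDC came second to cDC1_Clec9a for both genes in both suffixes.

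Genes of acid secretion and ion exchange were also higher in suffix 1. Slc9b2, a sodium-proton exchanger of osteoclasts, stood at 6.65 against 0.86 in suffix 1 (log2 ratio 2.95) and at 9.34 against 4.20 in suffix 2. Car2, a carbonic anhydrase that supplies protons, stood at 3.86 against 0.57 and at 3.06 against 1.37, and natural killer cells had the highest level. Among the 4 measured V-ATPase subunits Atp6v0d2 alone was higher in suffix 1. The others, Atp6v0b, Atp6v1g1 and Atp6v1h, had log2 ratios of 0.96, 0.99 and 1.03, whose intervals reached below 2-fold.

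Receptor and fusion genes of the osteoclast list were higher in suffix 1. Tnfrsf11a, which encodes the receptor RANK, stood at 4.00 against 0.81 in suffix 1 (log2 ratio 2.30) and 3.71 against 1.44 in suffix 2 (1.36). Ocstamp, needed for fusion of osteoclast precursors, had levels of 2.94 against 0.66 and of 4.20 against 2.30. Itgav, the alpha chain of the vitronectin receptor, stood at 10.0 against 2.29 and at 10.1 against 4.54. Src, a kinase of the resorbing cytoskeleton, stood at 3.21 against 0.70 and at 3.04 against 1.45. Traf6, the adaptor that carries the RANK signal, was the member not called, with log2 ratios of 0.48 and 0.14. The wider list of RANK, TNF and NF-kB signalling genes was not raised as a whole. In suffix 1, 2 of 21 were higher and 2 lower, with a median log2 ratio of -0.30. In suffix 2, 1 of 19 was higher and 4 were lower, with a median of -0.97. Over all genes 5.98% and 1.78% were higher and 2.99% and 3.79% lower.

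Bdh2, an enzyme of hydroxybutyrate and siderophore metabolism, and Slc9b2 are neighbours on chromosome 3. They lie on the same strand with 3273 bases between them (chr3:135281221-135304426 and chr3:135307700-135345387). Bdh2 stood at 4.50 against 0.38 in suffix 1 and at 6.38 against 1.73 in suffix 2. Its log2 ratios were 3.57 and 1.88. Their levels ran together over single cells, with a Spearman coefficient of 0.74 over 169 cells and 0.72 over 77, where every pair shares the depth of its cell. Ctsk gave 0.77 and 0.83 with Slc9b2 and 0.70 and 0.69 with Bdh2. For these 3 genes the 250 bases before the start of each are shown, from RefSeq on GRCm38.p6, 5′ to 3′ on the plus strand, which is the gene's strand for all 3. Capitals mark matches, on either strand, to GAGGAA (the core bound by PU.1, a myeloid factor) or GGAAA (the core bound by NFAT, which acts downstream of RANK).
Ctsk, chr3:95498960-95499209: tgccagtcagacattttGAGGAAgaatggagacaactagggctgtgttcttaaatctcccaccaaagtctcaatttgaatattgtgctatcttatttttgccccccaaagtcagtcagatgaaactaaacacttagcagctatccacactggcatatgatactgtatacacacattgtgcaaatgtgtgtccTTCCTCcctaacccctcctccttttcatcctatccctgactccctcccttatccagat
Bdh2, chr3:135280971-135281220: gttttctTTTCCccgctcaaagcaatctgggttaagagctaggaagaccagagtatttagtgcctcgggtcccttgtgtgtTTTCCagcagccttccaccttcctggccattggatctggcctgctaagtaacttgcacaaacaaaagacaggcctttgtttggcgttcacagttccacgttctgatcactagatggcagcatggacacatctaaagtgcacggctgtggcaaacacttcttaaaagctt
Slc9b2, chr3:135307450-135307699: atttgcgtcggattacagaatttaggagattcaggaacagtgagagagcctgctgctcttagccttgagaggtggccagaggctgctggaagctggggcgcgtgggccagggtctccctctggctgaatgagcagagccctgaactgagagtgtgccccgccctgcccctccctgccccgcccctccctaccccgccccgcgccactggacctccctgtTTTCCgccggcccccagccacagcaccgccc
Ctsk held 2 matches to GAGGAA, 233 and 58 bases before the start, a motif found in 23.3% of 32851 promoter windows of the same length. Bdh2 held 2 matches to GGAAA, at 243 and 169 bases, and Slc9b2 held 1, at 31 bases, where 55.6% of windows hold this short motif. No match was found in the 3 windows to TGANTCA (AP-1, in 6.75% of windows) or TCANGTG (the M-box bound by Mitf, in 12.2%). A match is a run of letters and no evidence of binding. Of 6 genes looked for 5 had an entry, and Atp6v0d2 had none.

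Most of the other leading genes rested on few UMIs. Slc45a3, a solute carrier, had the highest log2 ratio of suffix 1, 3.59 (3.07 to 4.09), from 47 UMIs, at 0.49 against 0.04. Its levels in suffix 2 were 0.46 against 0.16. Fndc7, Mycl (a Myc family factor known from dendritic cells), Abcb4 (a phospholipid transporter), Kazn, St18, Cacnb2 (a calcium channel subunit) and Cd59a (a complement inhibitor) had log2 ratios between 3.03 and 3.37 in suffix 1. In suffix 2 they lay between 0.77 and 2.87, where Fndc7 alone of these 7 was called and Mycl held too few UMIs to compare. Col27a1, a fibrillar collagen chain, stood at 1.43 against 0.17 and at 1.13 against 0.36. Serpinb8, a protease inhibitor, had levels of 1.68 against 0.22 and of 1.44 against 0.45. Pltp, which transfers phospholipids between lipoproteins, stood at 8.86 against 1.17 and at 7.13 against 2.11, and in suffix 1 no other name had a higher level.

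**Figure D2:**
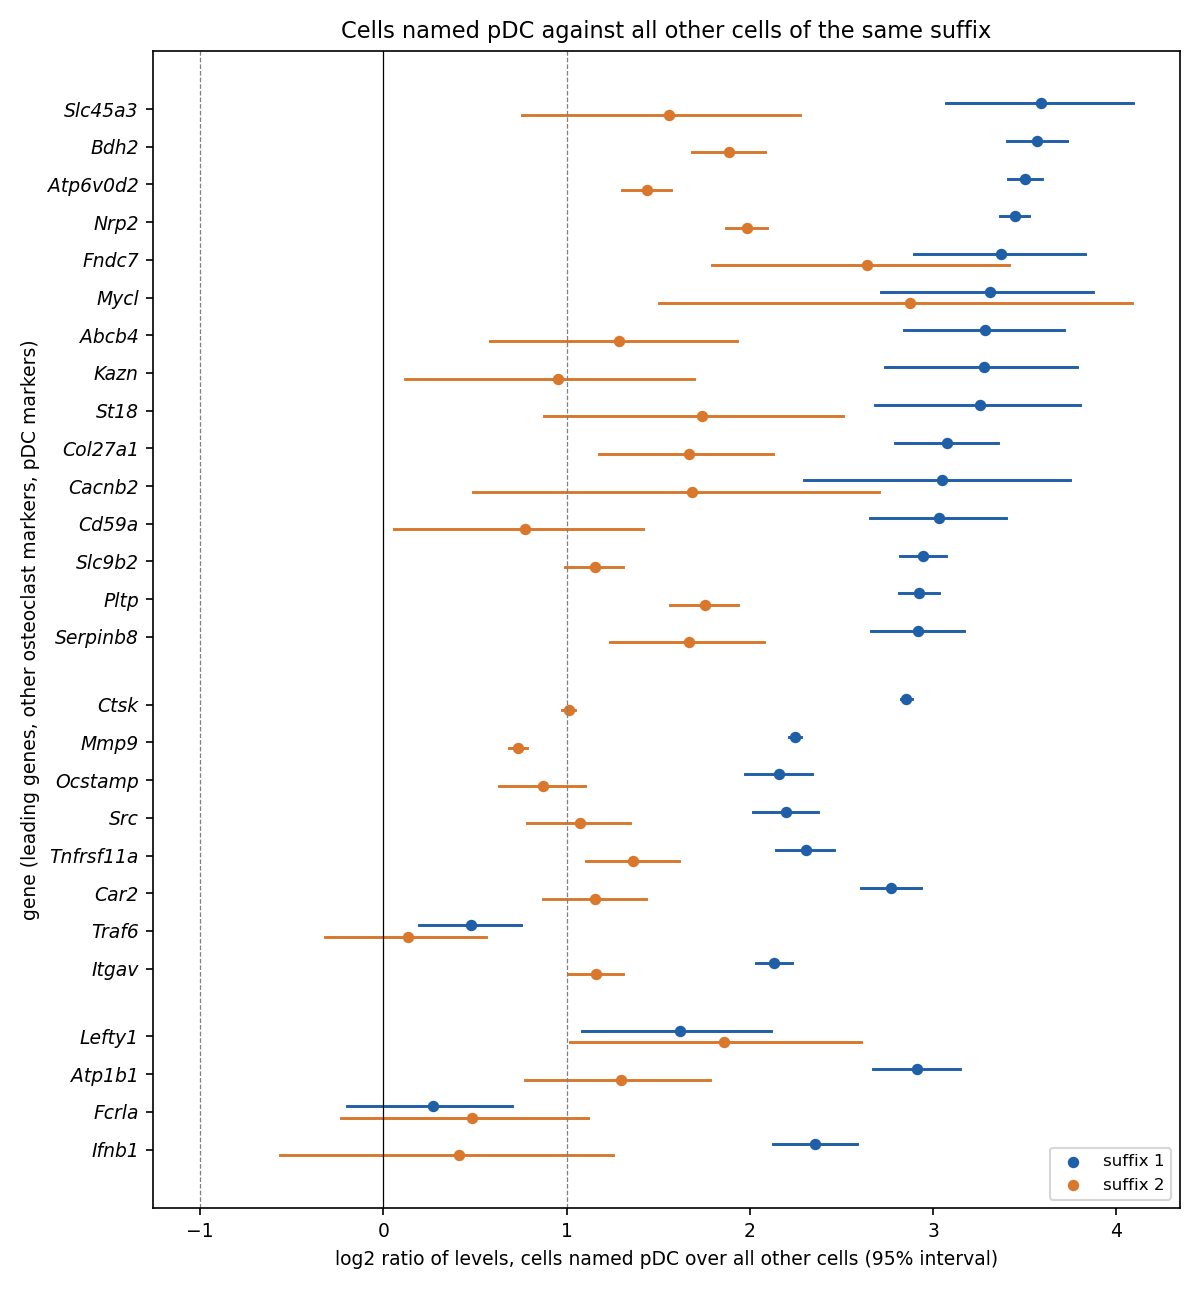
Log2 ratio of levels in cells named pDC over all other cells of the same suffix, with exact 95% intervals, for the 15 leading genes of suffix 1, the other osteoclast markers and 4 pDC markers, from top to bottom. Dashed lines mark 2-fold, and the ratios of suffix 2 (orange) lie left of those of suffix 1 (blue) for all genes shown except Lefty1 and Fcrla.

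Markers of plasmacytoid dendritic cells gave a mixed picture. Atp1b1, the beta 1 chain of the sodium pump (chr1:164437109-164458355, minus strand), stood at 1.92 against 0.26 in suffix 1, a log2 ratio of 2.91 (2.67 to 3.15). It stood at 0.98 against 0.40 in suffix 2, a log2 ratio of 1.30 that did not pass. Lefty1, a secreted TGF-beta family member, was higher in both, at 0.37 against 0.12 and at 0.44 against 0.12. Its call was lost in suffix 1 with S100a8 and S100a9 out of the denominator (log2 ratio 1.33, interval 0.79 to 1.82) and in suffix 2 without cDC1_Clec9a cells (1.74, 0.90 to 2.49). Fcrla, an intracellular Fc receptor relative, was not called, at 0.46 against 0.38 in suffix 1 and 0.54 against 0.39 in suffix 2.

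Ifnb1, which encodes interferon beta (chr4:88522025-88522774, minus strand), stood at 1.91 against 0.37 in suffix 1, a log2 ratio of 2.36. Its 184 UMIs came from 8 of 169 cells, and 173 of them from 3 cells, of which the first held 96. Only 1 of 77 cells of suffix 2 held the gene, with 12 UMIs. Single cells with many Ifnb1 UMIs were also found under other names: 117 in 1 cell named Macro_Mgl2 and 62 in 1 named Macro_Vegfa. Cells named cDC2_Cd209a had the highest Ifnb1 levels, 4.82 and 5.21, with a UMI in 9.92% and 8.82% of cells, against 4.73% and 1.30% of cells named pDC. For cDC2_Cd209a, 13 of 131 cells of suffix 1 held 156 UMIs, at most 38 in 1 cell. In suffix 2, 43 of its 46 UMIs lay in 1 of 34 cells. Among 17 interferon-stimulated genes compared in suffix 1, none was higher or lower, with a median log2 ratio of -0.14, and in suffix 2 1 was lower. Over all genes 5.98% were higher and 2.99% lower in suffix 1 and 3.79% lower in suffix 2, so counts of 0 or 1 in 17 lie near the background. Their sum was 31.6 in cells named pDC and 36.9 in other cells.

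Ctsk was far from uniform over these cells. A Ctsk UMI was found in 93 of 169 cells of suffix 1 (55.0%, 47.2 to 62.7) and in 50 of 77 cells of suffix 2 (64.9%). After each cell was thinned to 500 UMIs, leaving out 2 and 1 shallower cells, the shares were 40.1% and 50%. Thinned B cells, which should lack cathepsin K, showed 8.27% and 13.3%. The median cell named pDC had a Ctsk level of 1.52 in suffix 1, the upper quartile 84.4 and the highest cell 736. In suffix 2 these were 10.3, 170.0 and 748. Cells named cDC1_Clec9a had medians of 509 and 685. Thus 63 of 169 and 36 of 77 cells named pDC held 5 or more Ctsk UMIs, against 134 of 165 and 148 of 157 cells named cDC1_Clec9a and 11 of 1785 B cells of suffix 1.

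**Figure D3:**
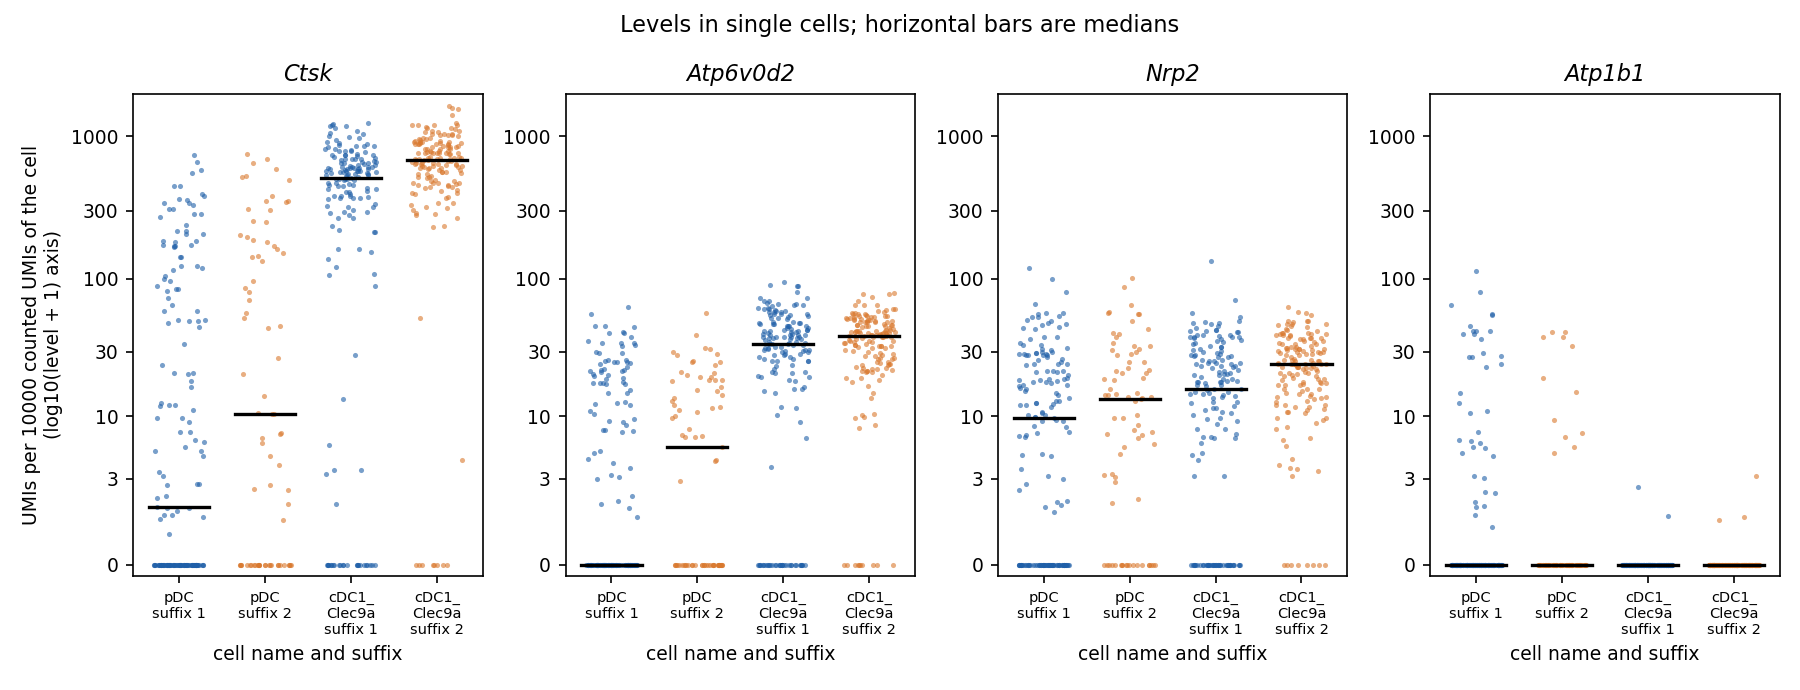
Level of Ctsk, Atp6v0d2, Nrp2 and Atp1b1 in each cell named pDC and each cell named cDC1_Clec9a (UMIs per 10000 counted UMIs of the cell, on a log10(level + 1) axis), by suffix, with medians as bars. Ctsk spans 0 to 748 in cells named pDC, and cells with Atp1b1 are found there and hardly among cDC1_Clec9a.

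Atp1b1 marked a different fraction of the cells. An Atp1b1 UMI was found in 39 of 169 cells (23.1%) and in 12 of 77 (15.6%), against 2 of 165 and 3 of 157 cells named cDC1_Clec9a. It was also found in 19.3% and 53.8% of cells named cDC1_Ccl22. For NK_cell the shares were 29.3% and 39.6%, and for CD4_Tcm 33.3% and 19.2%. Of the 39, 29 held no Ctsk UMI and 3 held 5 or more; of the 12, 9 held none and 0 held 5 or more. Cells with neither gene numbered 47 and 18. The depth differed too, with medians of 1820 and 1345.5 UMIs in cells with Atp1b1 and of 5766 and 4535 in those without. Its part in the next values was not tested beyond thinning. The split by Atp1b1 and the set with 5 or more Ctsk UMIs were chosen after the values were seen and are given as descriptions.

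Lefty1 and Fcrla were detected more often in the cells with Atp1b1. Lefty1 was found in 53.8% and 58.3% of cells with Atp1b1, against 1.59% and 2.78% of the Ctsk-rich cells, and 0.784% and 4.29% of B cells. Fcrla was found in 35.9% and 41.7%, against 7.94% and 5.56%, but B cells showed 31.7% and 39.5%. B cells had median depths of 558 and 1352 UMIs. The Ctsk-rich cells were the deeper ones and had the lower shares. The summed T and B cell markers include Fcrla. In suffix 1 their sum was 11.6 in cells with Atp1b1, 5.75 in Ctsk-rich cells and 5.01 in cells with neither gene. In suffix 2 it was 8.16, 3.88 and 7.87. Fcrla alone stood at 2.19, 0.17 and 0.24 in suffix 1 and at 4.89, 0.27 and 0.37 in suffix 2, in the same order. The sum without Fcrla was not taken. Of the 39 cells with Atp1b1, 10 held 5 or more UMIs of this set, Fcrla included, as did 1 of the 12. S100a8 and S100a9 summed to 1258, 547 and 760 in suffix 1 and to 16.7, 417 and 58.7 in suffix 2, in the same order. Their part in these shares was not tested.

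Across all genes, 43 of 1839 were higher (2.34%) and 22 lower (1.20%) in cells with Atp1b1 than in those without in suffix 1. In suffix 2 the counts were 58 (5.45%) and 24 (2.26%) of 1064, and 19 higher and 10 lower genes, Atp1b1 not among them, were called in both. Among the 19, St8sia4, a polysialyltransferase, stood at 13.9 against 3.43 and 27.7 against 2.94. Ramp1, a receptor-modifying protein, had 5.55 against 1.10 and 14.3 against 0.88. Tent5c, a poly(A) polymerase of secretory cells, stood at 10.5 against 1.91 and 19.6 against 1.29. The inhibitor Slpi, the transcriptional inhibitor Id3, the kinase Stk17b, Btg2, Jun and Ptprc, which encodes CD45, were also among them. Ptprc stood at 26.5 against 11.1 and 35.5 against 8.35.

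The 10 lower genes were Ctsk, Mmp9, Slc9b2, Bdh2, Ocstamp, Nrp2, Itgav, S100a4, Ube2c and Cdc20. Nrp2 stood at 8.25 in cells with Atp1b1 against 20.2 in suffix 1, and at 2.04 against 20.5 in suffix 2. Ctsk stood at 30.2 against 130.2 and at 2.45 against 184. In suffix 1 the levels with Atp1b1 rest on few cells. Of 39 cells, 3 held 32, 221 and 150 Ctsk UMIs, at depths of 6355, 12094 and 13066, and 15.4% held Nrp2. With each cell thinned to 500 UMIs, Nrp2 was found in 7.69% and 0% of cells with Atp1b1, against 44.5% and 50% of those without. Il12a, which encodes the p35 chain of interleukin 12, was detected in 41.0% and 58.3% of cells with Atp1b1, in 3.17% and 0% of the Ctsk-rich cells and in 14.2% and 10.5% of B cells. Kmo, an enzyme of tryptophan breakdown, was found in 64.1% and 75%, against 3.17% and 5.56%, and in 7.17% and 12.1% of B cells. P2ry14, a receptor for nucleotide sugars, was found in 35.9% and 58.3%, against 4.76% and 5.56%, and in 0.392% and 2.38% of B cells.

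The cells with neither Ctsk nor Atp1b1 resembled neither set fully. Nrp2 was detected in 55.3% and 72.2% of them, at levels of 12.6 in suffix 1 and 29.997 in suffix 2. Ctsk-rich cells had Nrp2 levels of 23.2 and 17.3, so the order of these sets turned between the suffixes. In the cells with neither gene, Tnfrsf11a was found in 51.1% and 50%, at 3.29 and 5.44. Atp6v0d2 was found in only 14.9% and 16.7%, at 0.43 and 0.75. Of the 184 Ifnb1 UMIs of suffix 1, 82 lay in 4 cells of this set and 100 in 2 of the 23 cells with 1 to 4 Ctsk UMIs and no Atp1b1 UMI. Complement C1q genes summed to 94.7 there in suffix 1 and to 22.3 in suffix 2, against 27.3 and 19.2 in Ctsk-rich cells.

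**Figure D4:**
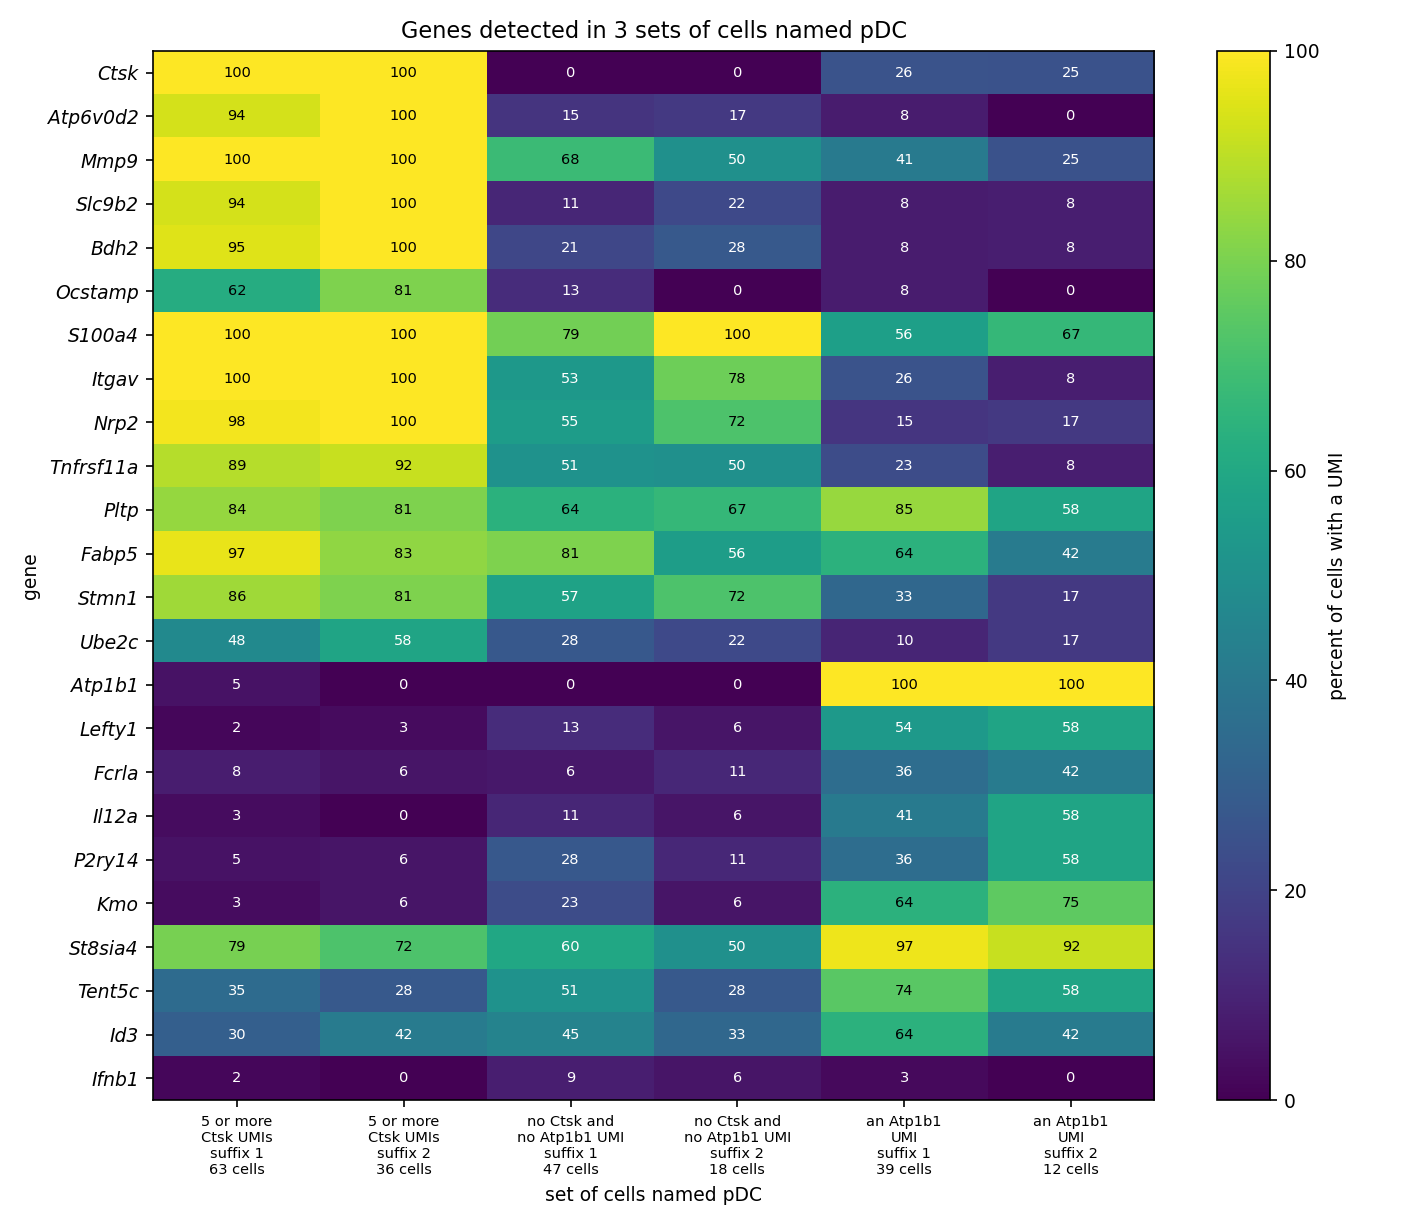
Percent of cells with a UMI of each gene (colour and printed value) in cells named pDC that hold 5 or more Ctsk UMIs, no Ctsk and no Atp1b1 UMI, or an Atp1b1 UMI, by suffix, without thinning. Ctsk and Atp1b1 were used to choose the sets, so their values there follow from that choice. Atp6v0d2, Slc9b2 and Bdh2 are found most often in the left columns, and Lefty1, Il12a and Kmo in the right ones, in both suffixes. The left and right sets of suffix 1 share 3 cells.

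Within the cells, Ctsk and Atp6v0d2 ran together, with Spearman coefficients of 0.82 over 169 cells and 0.84 over 77. Ctsk and Mmp9 gave 0.72 and 0.75. Ctsk and Atp1b1 gave -0.35 in each suffix. The level of Ctsk also followed the counted UMIs of the cell, with coefficients of 0.51 and 0.58, so these are descriptions of cells that differ in depth.

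Over all genes, the 3 names most like the cells named pDC in suffix 1 were macrophage names. Spearman coefficients over 3514 genes of suffix 1 were 0.94 with each of Macro_Mgl2, Macro_Maf and Macro_Vegfa, and 0.93 with cDC1_Clec9a, which was added because it shares the leading genes. In suffix 2 the coefficients were 0.91, 0.89 and 0.88, and 0.89 with cDC1_Clec9a. The values share the library and the overall order of gene levels. Against Macro_Mgl2 in suffix 1, 90 of 2473 genes were higher (3.64%) and 71 lower (2.87%). Against Macro_Maf, 122 of 2609 were higher (4.68%) and 102 lower (3.91%). Against Macro_Vegfa, 157 of 2613 were higher (6.01%) and 100 lower (3.83%). In suffix 2 the higher and lower shares were 2.97% and 3.38%, 3.61% and 5.03%, and 5.03% and 6.29%, in the same order.

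Summed levels of osteoclast genes separated the cells named pDC from each macrophage name. Ctsk stood at 0.57, 1.35 and 1.83 in Macro_Mgl2, Macro_Maf and Macro_Vegfa of suffix 1, against 116. The log2 ratios were 7.68, 6.43 and 5.98, and 7.77, 6.80 and 6.85 in suffix 2. Slc9b2, Atp6v0d2 and Bdh2 were also higher against each of the 3 names in both suffixes. These are sums over cells that differ: 63 of 169 and 36 of 77 held 5 or more Ctsk UMIs. Cells of suffix 1 with neither Ctsk nor Atp1b1 had Atp6v0d2 at 0.43, Slc9b2 at 0.81 and Bdh2 at 1.29. Macro_Vegfa had 0.34, 0.12 and 0.11. Zfp462, a zinc finger gene, was higher against Macro_Maf and Macro_Vegfa in suffix 1, and Rufy4, an autophagy-linked gene of dendritic cells, against all 3, at 1.03 against 0.03 in Macro_Maf.

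Macrophage genes were lower in turn. Ptgs1, which encodes cyclooxygenase 1, stood at 0.47 against 5.38 in Macro_Mgl2 and 7.36 in Macro_Maf in suffix 1, and at 0.39 against 4.02 and 4.62 in suffix 2. Mrc1, the mannose receptor, stood at 1.05 against 11.6 in Macro_Maf, and at 0.51 against 9.20 in suffix 2. Il6 had 0.16 against 1.90 in Macro_Vegfa, and Ackr3, a scavenging chemokine receptor, 0.28 against 3.20. Both were lower in suffix 2 as well. Hgf and Slc4a11 were lower than in Macro_Maf and Macro_Vegfa in suffix 1, each on fewer than 5 UMIs in cells named pDC.

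Against cDC1_Clec9a the order of the osteoclast genes turned. In suffix 1, 162 of 2230 genes were higher in cells named pDC (7.26%) and 31 lower (1.39%), and in suffix 2, 134 (6.95%) and 48 (2.49%) of 1929. Of the 162, 99 could be compared in suffix 2 and all 99 had the same sign; 78 had the same call. Ctsk stood at 116 against 513 and at 173 against 707, with log2 ratios of -2.14 (-2.17 to -2.11) and -2.04. Mmp9, Atp6v0d2, Slc9b2, Ocstamp and Atp6v1g1 were lower in both suffixes. Nrp2 was nearer, at 18.5 against 22.7 and 19.3 against 26.8, log2 ratios of -0.30 and -0.47 that were not called. Spry1, an inhibitor of growth factor signalling, stood at 0.91 against 4.57 and at 1.16 against 4.55.

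Cell cycle genes were higher than in cDC1_Clec9a. The list summed to 52.4 in cells named pDC and 9.12 in cDC1_Clec9a of suffix 1, and to 64.6 and 5.34 in suffix 2. Of 20 measured members, 17 and 13 were higher and none was lower. Over all genes 7.26% and 6.95% were higher and 1.39% and 2.49% lower in this comparison. Ube2c, a ubiquitin-conjugating enzyme of mitosis, stood at 4.55 against 0.15 and at 7.21 against 0.15. Cenpf, a kinetochore protein, stood at 1.14 against 0.02 and at 2.37 against 0.01. Nusap1, a spindle protein, was higher in both suffixes, and Spc25 and Clspn in suffix 1. Macro_Mgl2 had a higher sum than cells named pDC, 105 and 104.

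Against all other cells, 5 of 20 cell cycle genes were higher in each suffix, where 5.98% and 1.78% of all genes were higher. Ube2c, Mcm6 (a subunit of the replicative helicase), Bub1b and Kif2c were called in both, Stmn1 in suffix 1 and Cdc20 in suffix 2. Mcm6 stood at 3.11 against 1.14 and at 3.29 against 1.36. With S100a8 and S100a9 out of the denominator 1 of 20 was higher in suffix 1. Over all genes 101 of 3514 were then higher, so 1 of 20 lies near the background. The cell cycle sum was 52.8 and 71.6 in Ctsk-rich cells, 60.6 and 55.5 in cells with neither gene and 22.8 and 41.2 in cells with Atp1b1.

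**Figure D5:**
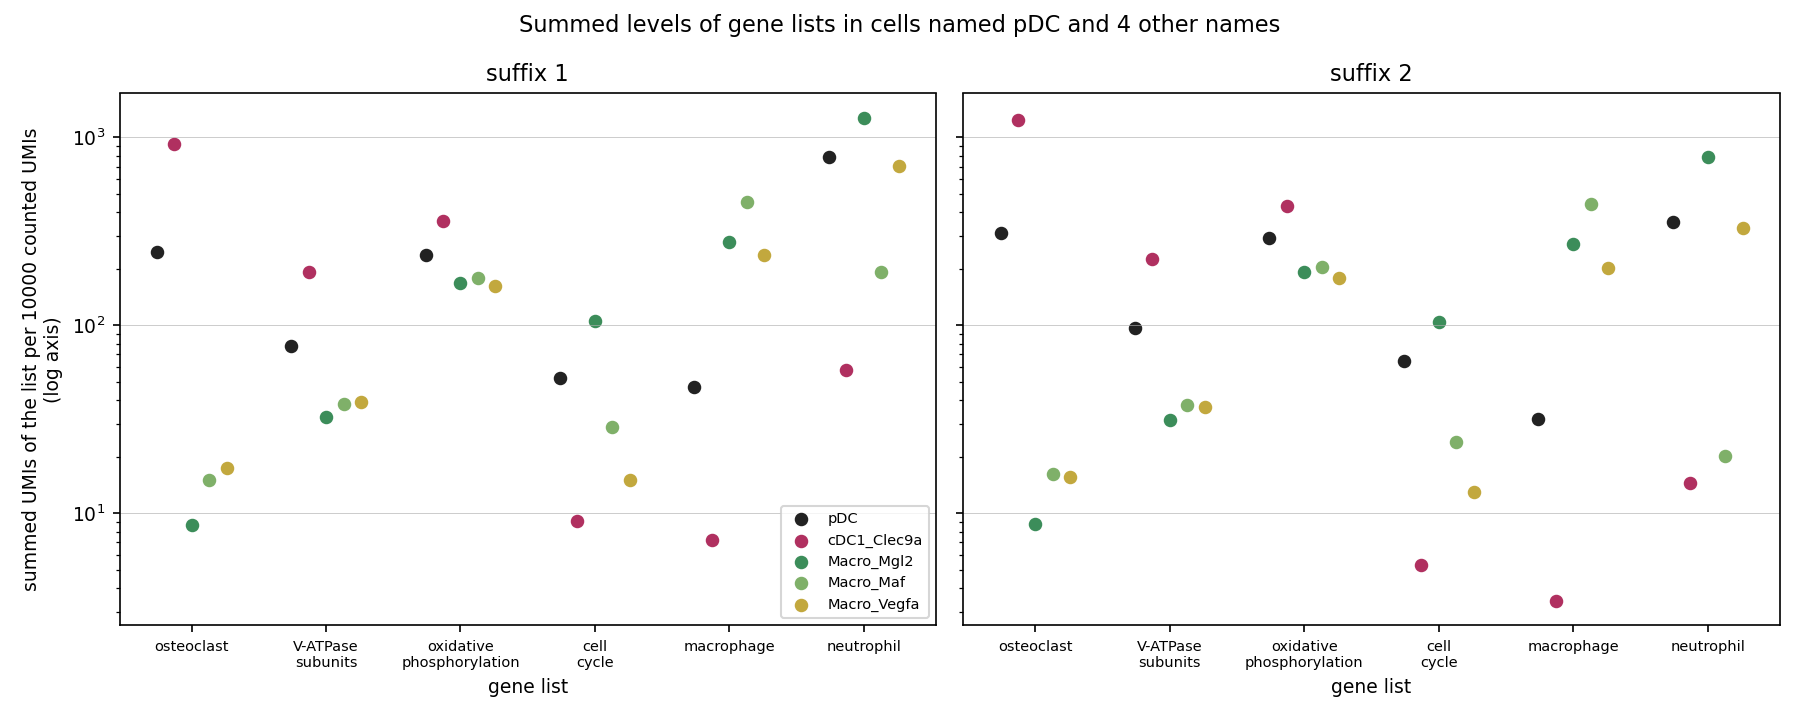
Summed levels of 6 gene lists (UMIs per 10000 counted UMIs, log axis) in cells named pDC (black) and 4 other names, for suffix 1 (left) and suffix 2 (right). Cells named pDC lie between cDC1_Clec9a and the macrophage names for osteoclast, V-ATPase and oxidative phosphorylation genes, and above cDC1_Clec9a for cell cycle, macrophage and neutrophil genes.

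Genes of oxidative phosphorylation were moderately higher in suffix 1. Of 17 measured, 8 were higher, among them Sdhb at 8.44 against 3.13 and Atp5g3, a subunit of ATP synthase, at 29.7 against 11.1. None was higher and 1 was lower in suffix 2, where the levels of Sdhb and Atp5g3 were 8.75 against 4.65 and 32.9 against 17.3. Over all genes 5.98% were higher in suffix 1, and 1.78% were higher and 3.79% lower in suffix 2. In suffix 2 the counts of 0 and 1 in 17 thus lay near the background. With S100a8 and S100a9 out of the denominator 2 of the 17 were higher in suffix 1, as were 101 of 3514 genes. The list sum ranked second of 23 names in both suffixes, after cDC1_Clec9a.

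S100a4, a calcium-binding protein of motile cells listed with monocytes, stood at 186 against 27.7 and at 265 against 79.0, second to cDC1_Clec9a. Of the other 3 monocyte genes, Fn1 and Chil3 were lower in both suffixes and Thbs1 in suffix 2. Fn1, which encodes fibronectin, stood at 11.7 against 29.9 and 12.7 against 34.6. In the list of neuropilins, plexins and semaphorins, Nrp2 and its co-receptor Plxna2 were higher in suffix 1, Plxna2 on 18 UMIs, and Nrp2 alone in suffix 2, where Sema6d was lower. Il10 was the only higher gene of 15 inflammatory mediators compared, at 1.44 against 0.51 in suffix 1; Il1a, Il1b, Il6, Ptgs1 and Ackr3 were lower. Without the 3 most alike names among the other cells of suffix 1 none was lower, and with S100a8 and S100a9 out of the denominator Il10 was not called. In suffix 2, 10 of 15 were lower. Over all genes 5.98% were higher and 2.99% lower in suffix 1, and 3.79% were lower in suffix 2. The 1 higher mediator of 15 lies near that background. Among 12 genes for lipid handling in suffix 1, Pltp and Acadm, an enzyme of fatty acid oxidation, were higher, and Fabp4 and G0s2 were lower.

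Transcripts of other cell types were present in part of the cells. All 7 measured neutrophil markers of 10 were found, with a sum of 787 in suffix 1 and 357 in suffix 2, against 2551 and 1313 in other cells and 58.0 and 14.5 in cDC1_Clec9a. In 37 of 169 and 7 of 77 cells, 10% or more of the UMIs came from S100a8 and S100a9. C1qa, C1qb and C1qc, the macrophage genes of complement C1q, reached 5 or more UMIs in 47 and 16 cells. C1qb stood at 12.9 against 33.7 and at 8.16 against 28.6. C1qa, C1qb and C1qc were lower in both suffixes, but per cell C1qa and C1qc had log2 ratios of 0.07 and 0.01, and without the 3 most alike names the 3 genes had 0.37, 0.28 and 0.32. T and B cell markers, Fcrla among them, reached 5 UMIs in 37 and 9 cells. Their share in the results above was not tested beyond leaving out those 37 cells, after which 193 genes were higher and 124 lower in suffix 1.

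Fibroblast markers were nearly absent. Of 11 measured fibroblast genes 9 were lower in suffix 1 and 8 in suffix 2, against 2.99% and 3.79% of all genes. The fibroblast sum was 0.20 and 0.18, against 14.6 and 21.1. Col3a1, a fibrillar collagen, stood at 0.11 against 10.0 and at 0.08 against 14.7. Postn, a matrix protein, had 0 UMIs in suffix 1, against a level of 1.13 in other cells, and 1 UMI in suffix 2. Ccn1, Col5a2, Serping1, Tm4sf1, Col6a3, Wwtr1, Tnc and Fhl2 were the other leading lower genes, each on 1 or 2 UMIs in suffix 1, and all but Fhl2 were lower in suffix 2. Wfdc2 and Sfn, epithelial genes, were lower in both suffixes, with Wfdc2 at 0.12 against 4.42 and at 0.98 against 6.57. They were the 2 lower genes of 6 epithelial markers compared in suffix 1 and of 3 in suffix 2. The epithelial sum was 0.22 against 5.18 and 1.11 against 7.18. In suffix 2 that sum ranked 5 of 23 names, above Macro_Mgl2 (0.21), Macro_Maf (0.29), Macro_Vegfa (0.18) and cDC1_Clec9a (0.07). The mast cell protease Cpa3 was called higher in suffix 2 on 46 UMIs, 44 of them in 1 cell.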

How the data were processed

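Single-cell RNA was counted by droplet sequencing of sorted CD45-positive cells. UMI counts, 1 value for each gene in each cell, were made and deposited by the authors; Cell Ranger, Seurat and the GRCm38 (mm10) build are named in the submitters' processing notes, and how cells were named is not given in the sources used here. A total of 4099 complete gene rows were analysed and 1 incomplete row was left out. No doublets were removed here. Members and gene lists were chosen with earlier results of these data known.

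UMIs were summed over cells within a suffix, and ratios were given exact conditional binomial 95% intervals; 3 counts stood in for 0. The text names the 15 highest and 10 lowest genes by log2 ratio among those called in suffix 1, 8 and 5 against each similar name, and members of the lists; some of these genes are not reported here. No p-value is given because cells of a library do not replicate a condition. Fewer cells and less RNA per cell cannot be told apart in a sum. The names most alike had the highest Spearman coefficient of log10(level + 0.1). Depth was 29567302 counted UMIs in suffix 1 and 8578852 in suffix 2. The planned count test between wild-type and Mif-depleted samples was not run, since cells could not be tied to samples. The interval script was tested on simulated data. Coordinates are from GENCODE M21. Computation used scipy 1.17.1 with numpy 2.4.6 under Python 3.11.15; tables were handled in pandas 2.3.3, and plots drawn in matplotlib 3.10.9.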

Additional observations from a re-analysis of the deposited data

How the results depend on the processing

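Against 210 higher and 105 lower genes in suffix 1, leaving S100a8 and S100a9 out of the denominator gave 101 and 159, and UMIs per cell gave 2021 and 19. Weighting every cell alike, by fold alone, gave 711 and 567, and leaving out the 3 most alike names gave 393 higher genes. Suffix 2 gave 55 higher genes, or 108 without cDC1_Clec9a, an alternative chosen after seeing the data. The cause of these shifts was not tested. Other settings for the UMI minimum, and leaving out the 17 deepest cells or the 37 with T and B cell markers, kept the counts of higher genes between 184 and 230. Of 49 genes followed, C1qa and C1qc turned to 0.068 and 0.0082 per cell, and C1qa, C1qb and C1qc to 0.37, 0.28 and 0.32 without the 3 most alike names. Thinning to 500 UMIs moved 4 of 5 shares of cells with a UMI. No paired analysis was possible because no column carries a sample or replicate number; for the same reason the other normalization, the filter on low counts, the replicate block and leaving out replicates were not run between wild-type and Mif-depleted samples. Genes with few UMIs in 169 or 77 cells are limited by depth.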
